A study of Saccharomyces cerevisiae with 9 samples.

Results

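The cytosolic ribosomal protein genes of Saccharomyces cerevisiae were followed in cultures exposed to bisphenol A (BPA), the monomer of polycarbonate plastics. The set holds every gene whose symbol has the form RPL or RPS followed by a number and, where there are paralogues, the letter A or B, together with the stalk genes RPP0, RPP1A, RPP1B, RPP2A and RPP2B. It came to 127 of the 5449 S. cerevisiae genes measured. The R64 gene table holds 137 such genes, and the other 10, without a named probe set, were not analysed here. Of the 127 genes, 70 encode proteins of the large (60S) subunit, 52 proteins of the small (40S) subunit and 5 the stalk. By copy, 54 were A copies, 55 were B copies and 18 were single genes, and 50 families had both copies measured. The other 9 copies had no partner with a named probe set of its own. Their own probe sets can match related sequences, so the A or B label of these 9 may not be specific to that copy.

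Expression was measured on 9 arrays, 1 per culture, with 3 cultures in each of 3 groups. All were grown in YPD, a rich broth, and treated at mid-exponential phase for 180 min. The groups were 300 mg/L BPA, 50 mg/L BPA and a control that received the ethanol used to dissolve BPA, in equal volume, so ethanol was common to all 9 cultures. The labels call the replicates biological but do not say how the cultures were started, so p-values measure the spread between these cultures, which may be partly technical. The labels name neither the strain nor the growth rate.

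Ribosomal proteins are assembled with ribosomal RNA into the 2 subunits of the ribosome, the small one decoding the mRNA and the large one forming peptide bonds. In fast-growing yeast their mRNAs are among the most abundant, and their transcription is coupled to growth through the TOR and protein kinase A pathways. Most are encoded by a pair of paralogous genes kept from an ancient duplication of the whole genome, and in several pairs the protein product lowers the expression of one of the copies.

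Each probe set has 1 log2 value per array, which is relative to the other transcripts on the same array. A difference of 1 on this scale is a doubling. Fewer cells of a kind and less RNA per cell cannot be told apart in such bulk samples. All 127 genes lay above background on all 9 arrays, where background was the 95th percentile of the probe sets for a different yeast, Schizosaccharomyces pombe, which the array also carries. The median log2 value of the ribosomal protein genes in control cultures was 12.22, at the 98.0th percentile of all genes, and 59 of the 100 brightest genes belonged to the set. Of the 127 genes, 25 rest on probe sets whose names (ending in s_at or x_at) mark them as able to match related sequences, which in paralogues can mean the other copy. The median SD over 3 arrays was 0.05 for the control arrays, 0.08 for the 50 mg/L arrays and 0.04 for the 300 mg/L arrays.

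Replicate 2 of the 50 mg/L group stood apart. The median ribosomal protein gene lay 0.16 below its control mean on that array (log2 difference -0.16), against -0.02 and -0.03 on the other 50 mg/L arrays. The 3 control arrays gave -0.02, -0.01 and 0.05, and the 3 arrays at 300 mg/L gave 0.05, 0.08 and 0.04. The 300 mg/L arrays thus lay near or above the highest control array, and of the 50 mg/L arrays only replicate 2 lay well below the control arrays. Some features outside the set also differed at 300 mg/L. Of 17 meiosis and sporulation markers, 13 were higher and 0 lower against control by limma at an adjusted p under 0.05, and the sum of their log2 values was 90.9 to 93.7 at 300 mg/L, against 68.0 to 69.2 in control. Over all genes 52.7% were called, and the markers' median log2 change of 0.64 became 0.23 with quantile normalization, with 9 higher and 3 lower. SPR3, a sporulation septin, and SPO19, a spore membrane protein, had the largest of these changes, 4.65 ± 0.24 and 4.26 ± 0.22 (log2, SE). The control probe set at the 3' end of 18S ribosomal RNA was also 1.05 ± 0.20 higher at 300 mg/L than in control (log2, SE, adjusted p = 0.00171), while the one at the 5' end differed by -0.14 ± 0.06 (adjusted p = 0.0687). Their part in the results below was not tested.

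**Figure D1:**
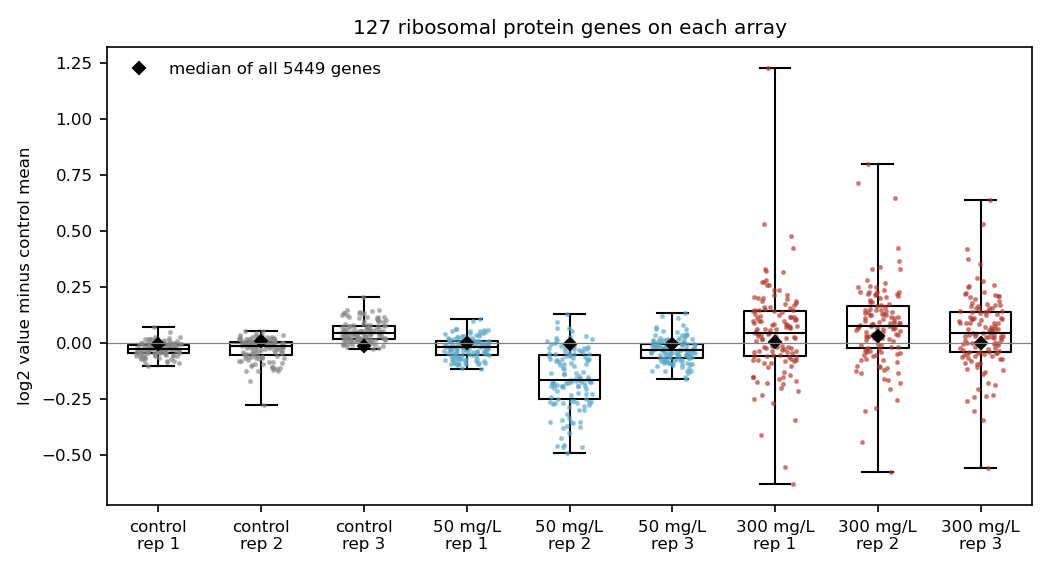
Log2 value minus the control mean (vertical axis) of each of the 127 ribosomal protein genes on each of the 9 arrays (1 point per gene), with boxes between the quartiles, black bars for the medians, whiskers from the lowest to the highest gene, and diamonds for the median of all 5449 genes. The box of replicate 2 at 50 mg/L lies lowest, with a median of -0.16, and the medians of the 3 arrays at 300 mg/L lie between 0.04 and 0.08.

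Against control, 300 mg/L BPA moved few of these genes. None changed by 2-fold or more, where 294 of all 5449 genes did, and RPL41A reached a log2 change of 1.01 under an alternative. Of the 127 genes, 21 rose and 8 fell by limma at an adjusted p under 0.05 (Benjamini-Hochberg over all genes). That is 22.8% of the set, where 52.7% of all genes were called (27.5% of all genes higher and 25.2% lower). The median change was 0.06 on the log2 scale, against 0.01 over all genes, and the quartiles of the changes were -0.03 and 0.13, against -0.23 and 0.28 over all genes. The sign of that median was kept under quantile normalization (0.03) and with arrays centred on the gene median (0.04) or on the S. pombe probe sets (0.11), but it turned to -0.03 when arrays were centred on the hybridization spike-ins. The split of higher and lower calls also moved, to 18 and 11 with quantile normalization, 16 and 12 with the gene median, 29 and 6 with the S. pombe probe sets and 3 and 2 with the spike-ins. The spike-ins also lowered the share called over all genes, to 28.1%.

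Other bright genes were called more often. Among the 69 other genes whose control level lay between the quartiles of the ribosomal protein levels, 7 rose and 27 fell, 49.3% in all, with a median change of -0.11. Their share of calls was near that of all genes and above that of the ribosomal protein genes, a difference that was not itself tested.

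The 2 subunits had similar medians. Of the 60S genes 9 of 70 rose and 5 fell, with a median log2 change of 0.06, and of the 40S genes 12 of 52 rose and 3 fell, with a median of 0.07. With arrays centred on the gene median the 60S calls were 7 higher and 7 lower and the 40S calls 9 and 5, and with the spike-ins they were 2 and 2 and 1 and 0, with medians of -0.03 and -0.02. None of the 5 stalk genes was called. By copy, 12 of 54 A copies rose and 0 fell, and 8 of 55 B copies rose and 5 fell. Over all genes 27.5% were higher and 25.2% lower. Within the 50 measured pairs, 11 A copies rose and 0 fell, and 8 B copies rose and 5 fell. With quantile normalization the A calls were 8 higher and 2 lower and the B calls 9 and 6. With arrays centred on the gene median they were 9 and 3 and 7 and 6, and on the S. pombe probe sets 16 and 0 and 12 and 3. The spike-ins left 1 and 0 and 2 and 1, where 28.1% of all genes were called. Of the 18 single genes, 1 rose and 3 fell, with a median of -0.00.

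**Figure D2:**
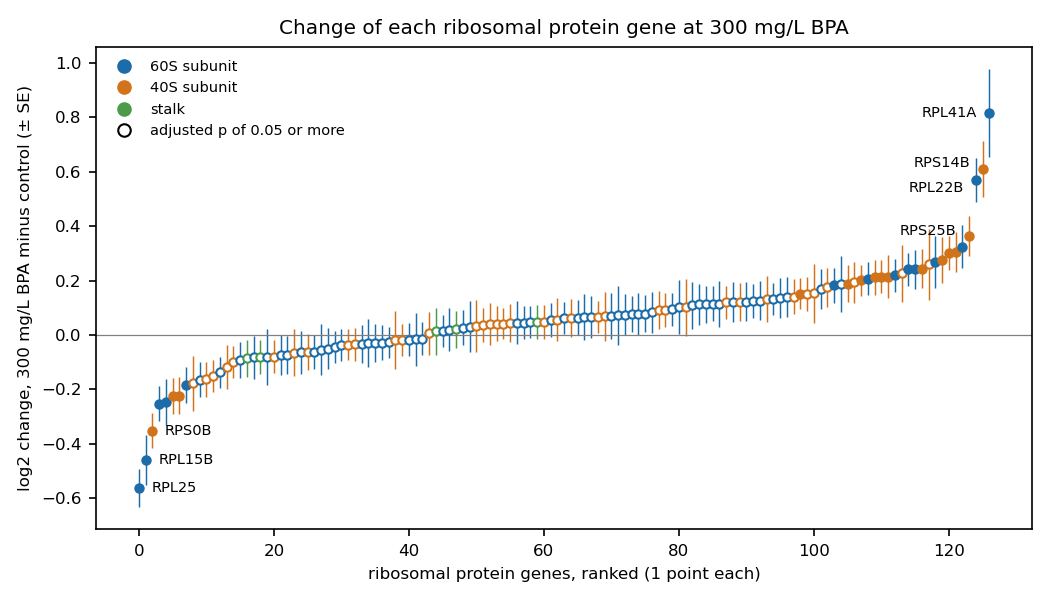
Log2 change at 300 mg/L BPA minus control (vertical axis, with SE bars) of the 127 ribosomal protein genes ranked by their change, coloured by subunit and filled where the adjusted p was under 0.05. The changes run from -0.56 for RPL25 to 0.82 for RPL41A, and most genes lie within the middle band as open points.

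The count depended on single arrays, and the share called over all genes moved with it. Without control replicate 1 the count was 15 and the share 43.0%, and without control replicate 2 they were 16 and 42.9%. Without replicate 2 at 300 mg/L they were 19 and 46.8%. Without replicate 2 at 50 mg/L, which enters the shared estimate of the spread, they were 43 (30 higher and 13 lower) and 60.8%. Of the genes named below, RPL33B lost its call under 7 of 20 alternatives, RPS21B under 5, RPL34A under 4, RPS28A, RPS22A and RPS3 under 3 each and RPS27A under 2.

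In a number of families the 2 paralogues parted at 300 mg/L. For each pair, the log2 value of the A copy minus that of the B copy was taken on each array and tested for a change between groups, so that the levels of different probe sets were never set against each other. At 300 mg/L this difference changed against control in 14 of 50 pairs (28.0%), 7 with A higher relative to B and 7 with A lower. Of all single genes 52.7% were called. Differences between genes other than paralogues were not tested, so how usual such a share of pairs is was not measured. In all 14 pairs the arrays of the 2 groups did not overlap, as in 28 of all 50 pairs. The single-gene test was passed by the B copy alone in 7 of them, by the A copy alone in 3, by neither in 4 and by both in 0. The measured changes of A and B had opposite signs in 10 of these 14, which were picked for a large difference, and in 19 of all 50. In 12 of the 14 both copies rest on probe sets without a suffix for related sequences, out of 35 such pairs.

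**Figure D3:**
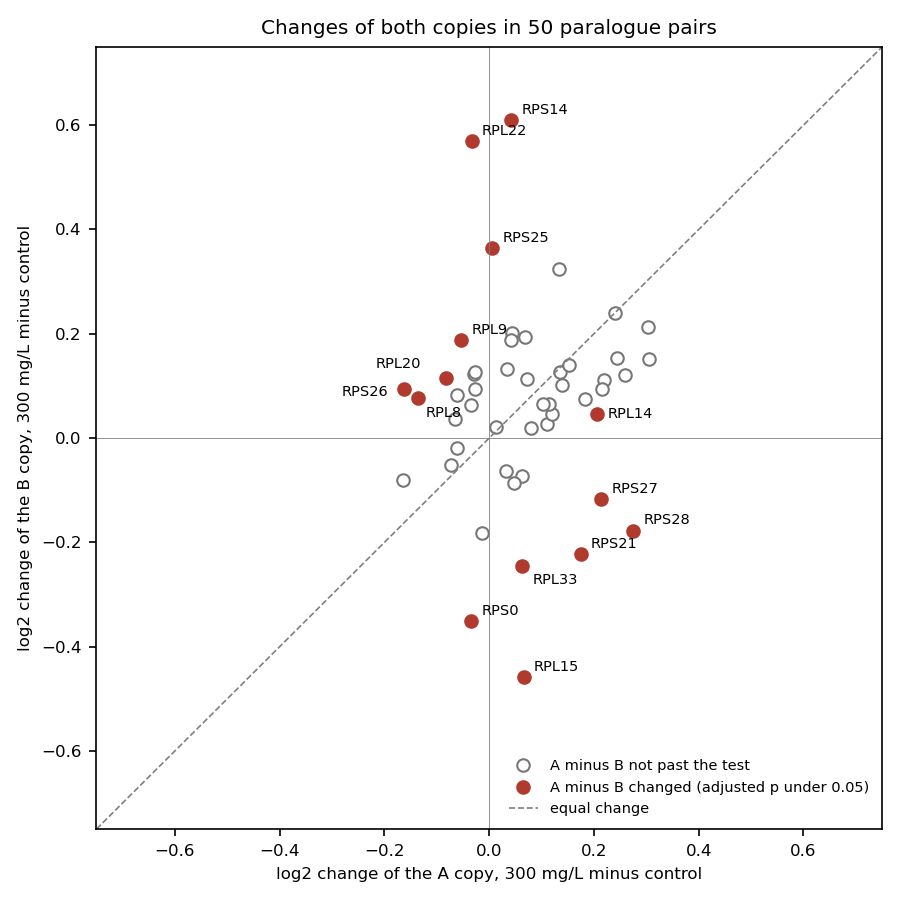
Log2 change of the B copy (vertical axis) against that of the A copy (horizontal axis), both at 300 mg/L minus control, in 50 paralogue pairs. The 14 filled points are pairs whose A minus B difference changed, such as RPL22 at -0.03 for A and 0.57 for B, and the dashed line marks equal change.

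RPL22 encodes a 60S protein that is known to inhibit splicing of the RPL22B transcript. RPL22B had log2 values of 10.11, 10.14 and 10.34 on the control arrays, 10.11, 10.04 and 10.19 at 50 mg/L and 10.73, 10.84 and 10.73 at 300 mg/L. RPL22A had 12.26, 12.20 and 12.24 in control, 12.18, 11.98 and 12.16 at 50 mg/L and 12.18, 12.18 and 12.24 at 300 mg/L. All 3 RPL22B values at 300 mg/L lay above the other 6, whereas those of RPL22A overlapped control. RPL22B rose by 0.57 ± 0.08 (log2, SE, adjusted p = 0.000284), a 1.48-fold change, and RPL22A differed by -0.03 ± 0.07 (adjusted p = 0.714). The A minus B difference changed by -0.60 ± 0.08 (adjusted p = 0.000244).

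RPS14 is a 40S protein near the decoding platform, and its protein is known to repress the RPS14B gene by binding its transcript. RPS14B had log2 values of 10.29, 10.22 and 10.40 in control, 10.22, 9.90 and 10.19 at 50 mg/L and 10.78, 11.02 and 10.94 at 300 mg/L. RPS14A had 12.67, 12.72 and 12.78 in control, 12.79, 12.69 and 12.67 at 50 mg/L and 12.75, 12.76 and 12.79 at 300 mg/L. The RPS14B arrays at 300 mg/L were again apart from all the others and the RPS14A arrays were not. RPS14B rose by 0.61 ± 0.10 (adjusted p = 0.000721), RPS14A differed by 0.04 ± 0.06 (adjusted p = 0.61), and the difference changed by -0.57 ± 0.09 (adjusted p = 0.000718).

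RPL15, a 60S protein embedded in the large ribosomal RNA, changed the other way. RPL15B had log2 values of 8.67, 8.51 and 8.68 in control, 8.72, 8.59 and 8.61 at 50 mg/L and 7.99, 8.18 and 8.32 at 300 mg/L. RPL15A had 12.29, 12.31 and 12.34 in control, 12.22, 11.96 and 12.24 at 50 mg/L and 12.46, 12.33 and 12.34 at 300 mg/L. Every 300 mg/L array was below every other array for RPL15B. RPL15B fell by 0.46 ± 0.09 on the log2 scale (adjusted p = 0.00209), RPL15A differed by 0.07 ± 0.08 (adjusted p = 0.54), and A minus B changed by 0.52 ± 0.12 (adjusted p = 0.00359).

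In RPS28 and RPS21 one copy passed the single-gene test and the other had a measured change of the opposite sign that did not. RPS28 is a small 40S protein that is known to promote the decay of RPS28B mRNA. RPS28A had log2 values of 12.00, 12.13 and 11.98 at 300 mg/L, against 11.65, 11.79 and 11.83 in control, and RPS28B had 11.04, 11.14 and 11.05 at 300 mg/L, against 11.25, 11.20 and 11.30 in control. The arrays did not overlap for either copy, as was so for 52.0% of the set and 67.8% of all genes. RPS28A rose by 0.27 ± 0.08 (adjusted p = 0.0199), RPS28B differed by -0.18 ± 0.10 (adjusted p = 0.167), and A minus B changed by 0.45 ± 0.07 (adjusted p = 0.000666). For RPS21, a 40S protein that contacts Rps0, RPS21A had log2 values of 12.97, 13.01 and 12.98 at 300 mg/L, against 12.79, 12.81 and 12.84 in control. RPS21B had 12.77, 12.80 and 12.77 at 300 mg/L, against 13.03, 12.94 and 13.04 in control. Neither copy overlapped between the groups. RPS21B fell by 0.22 ± 0.07 (adjusted p = 0.02), RPS21A differed by 0.17 ± 0.07 (adjusted p = 0.0637), and the difference changed by 0.40 ± 0.06 (adjusted p = 0.000382). RPS28B already differed from control by -0.23 at 50 mg/L, without a call. Set against 50 mg/L, the changes at 300 mg/L were 0.36 for RPS28A and 0.06 for RPS28B, of the same sign. Those of RPS21A and RPS21B were 0.30 and -0.14.

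In 3 further pairs of the 40S subunit a single copy passed the test. RPS25B, which encodes a protein of the 40S head, had log2 values of 12.04, 12.15 and 12.08 at 300 mg/L, against 11.63, 11.68 and 11.86 in control, and rose by 0.36 ± 0.07 (adjusted p = 0.00222). RPS25A differed by 0.01 ± 0.08, and A minus B changed by -0.36 ± 0.09 (adjusted p = 0.00552). RPS0B, for a protein of the back of the 40S subunit, had log2 values of 11.80, 11.91 and 11.87 at 300 mg/L, against 12.16, 12.22 and 12.25 in control, and fell by 0.35 ± 0.06 (adjusted p = 0.00118). RPS0A differed by -0.04 ± 0.06, with 11.85, 11.87 and 11.84 at 300 mg/L, against 11.85, 11.90 and 11.91 in control. The RPS25B and RPS0B arrays did not overlap between the groups, as in 67.8% of all genes, while those of RPS0A did. The RPS0 difference changed by 0.32 ± 0.06 (adjusted p = 0.00147). RPS27A, for a zinc-binding 40S protein, rose by 0.21 ± 0.06 (adjusted p = 0.0141) and RPS27B differed by -0.12 ± 0.08 (adjusted p = 0.257), so that A minus B changed by 0.33 ± 0.07 (adjusted p = 0.00246). RPS27B differed from control by -0.18 at 50 mg/L, without a call. Set against 50 mg/L, the changes at 300 mg/L were 0.32 for RPS27A and 0.06 for RPS27B.

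RPL33 and RPS26 completed the 10 largest changes. RPL33B, for a 60S protein, fell by 0.24 ± 0.08 (log2, SE, adjusted p = 0.0319), RPL33A differed by 0.06 ± 0.06, and A minus B changed by 0.31 ± 0.08 (adjusted p = 0.00811). For RPS26, which lines the mRNA exit channel, neither copy passed (RPS26A -0.16 ± 0.07, adjusted p = 0.0587, and RPS26B 0.09 ± 0.07, adjusted p = 0.288), but their difference changed by -0.26 ± 0.07 (adjusted p = 0.0106). The other 4 called pairs, RPL9, RPL8, RPL20 and RPL14, all of the 60S subunit, had changes of A minus B between -0.24 and 0.16. RPL8 and RPL14 depend on the probe set chosen. The second probe set of RPL8A, one that can match related sequences, gave 0.10 where the first gave -0.14. The second probe set of RPL14B, without such a suffix, gave 0.28 where the one used gave 0.05, and RPL14A rose by 0.21, so the sign of A minus B would turn. The RPL14 pair test had an adjusted p of 0.0455 and that of RPL8 0.0251. Across the 50 pairs the change of A and the change of B were nearly unrelated, with Pearson's r of 0.04 and Spearman's rho of 0.14 (n = 50 pairs, which share the same 6 arrays). RPL34 shows the opposite case, chosen after its values were seen: both copies rose by 0.24, with an adjusted p of 0.016 for RPL34A and 0.00745 for RPL34B.

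**Figure D4:**
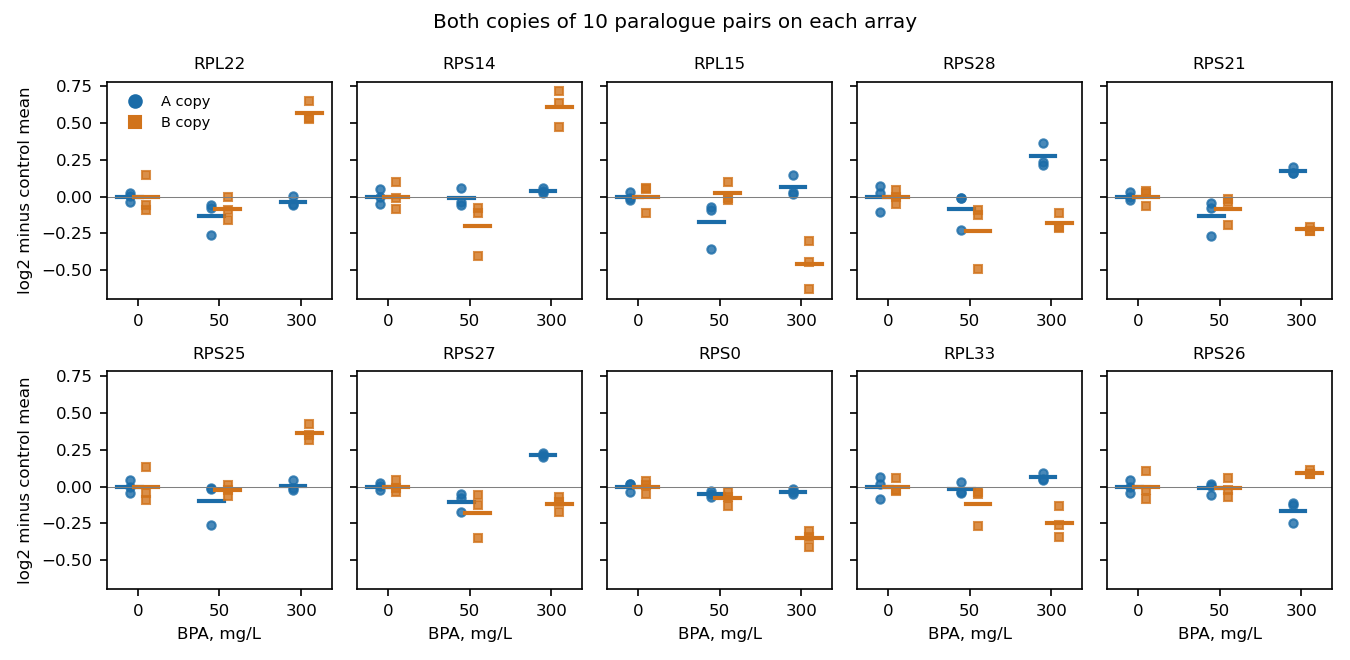
Log2 value minus that copy's control mean (vertical axis) at 0, 50 and 300 mg/L BPA for both copies of the 10 pairs with the largest change of A minus B, with circles for A, squares for B, 1 symbol per array and bars for the mean of 3 arrays. In RPL22 and RPS14 only the squares leave 0 at 300 mg/L, by 0.57 and 0.61, and in RPS28 and RPS21 the circles and squares part to either side of 0. The mean of the RPS28 squares lies at -0.23 at 50 mg/L.

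Of the single genes, RPL25 had the largest fall of the set. Its product sits at the exit of the peptide tunnel, where the signal recognition particle docks. RPL25 had log2 values of 12.41, 12.41 and 12.43 in control, 12.41, 12.19 and 12.38 at 50 mg/L and 11.86, 11.84 and 11.86 at 300 mg/L. The 300 mg/L arrays differed among themselves by far less than they differed from the rest. RPL25 fell by 0.56 ± 0.07 (adjusted p = 0.000146), to 0.678 of its control level.

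RPL10, whose product joins the large subunit late in its maturation, had log2 values of 12.83, 12.85 and 12.86 at 300 mg/L, against 13.06, 13.10 and 13.14 in control, and fell by 0.25 ± 0.06 (adjusted p = 0.00825). RPS3, whose product lies at the mRNA entry channel, had 12.57, 12.48 and 12.59 at 300 mg/L, against 12.76, 12.76 and 12.78 in control, and fell by 0.22 ± 0.07 (adjusted p = 0.0164). For both genes the 300 mg/L arrays lay below all control arrays, as in 21 of the 127 genes and 1775 of all 5449 genes. RPL39, for a small protein of the tunnel wall, was the single gene that rose, by 0.27 ± 0.10 (adjusted p = 0.0367), with log2 values of 11.70, 11.59 and 11.62 at 300 mg/L, against 11.35, 11.26 and 11.50 in control. That call was lost under 7 of 20 alternatives, among them arrays centred on the gene median, the spike-ins and the removal of any of 5 single arrays. RPL16B, for a 60S protein, fell by 0.18 ± 0.07 (adjusted p = 0.0412), and its call was lost under 9 of 20 alternatives.

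RPL41A had the largest rise, but it is measured unlike the rest. It encodes the smallest ribosomal protein, its probe set can match related sequences, and its log2 values were far below those of the other genes: 4.15, 4.15 and 4.23 in control, 4.11, 4.20 and 4.31 at 50 mg/L and 5.40, 4.98 and 4.60 at 300 mg/L. The 300 mg/L arrays lay above the other 6 and were spread widely. The change was 0.82 ± 0.16 (adjusted p = 0.00193), and it fell short of the threshold after quantile normalization (0.41, adjusted p = 0.105).

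The remaining large rises were of copies whose pair was not called against control. For RPL31 the A minus B difference changed by -0.19 ± 0.08 against control (adjusted p = 0.0533). Against 50 mg/L it was called, at -0.24 ± 0.08 (adjusted p = 0.0209). RPL31B, for a protein at the rim of the tunnel exit, had log2 values of 12.32, 12.23 and 12.12 at 300 mg/L, against 11.89, 11.84 and 11.98 in control, and rose by 0.32 ± 0.08 (adjusted p = 0.00602). RPS16A, for a 40S protein whose tail reaches the P site, rose by 0.30 ± 0.07 (adjusted p = 0.00615), and RPS29A, for a small zinc-binding 40S protein, by 0.30 ± 0.06 (adjusted p = 0.0025). RPS22A, for a 40S protein bound to the body of the subunit, rose by 0.24 ± 0.07 (adjusted p = 0.0154). RPS29B rose too, by 0.21 ± 0.06 (adjusted p = 0.0176), and the probe sets of both RPS29 copies and of RPS16A have a suffix for related sequences. RPS22A and RPL39 are divergent neighbours on chromosome X in the R64 gene table, and RPS14B is the convergent neighbour of RPS22A on its other side, so 3 adjacent genes of the set rose. None of the other 7 neighbouring pairs of ribosomal protein genes had both genes called.

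The stalk proteins, which bring elongation factors to the ribosome, showed no call at 300 mg/L. RPP0, the base of the stalk, had log2 values of 12.78, 12.87 and 12.83 at 300 mg/L, against 12.84, 12.93 and 12.95 in control, a difference of -0.08 ± 0.06 (adjusted p = 0.304). RPP1A, RPP1B, RPP2A and RPP2B, the acidic P proteins, differed by 0.01, 0.02, 0.05 and -0.09 with SE of 0.06 to 0.09, and their adjusted p ran from 0.321 to 0.911. The RPP0 arrays overlapped between the groups. The 3 genes whose protein is made as a fusion with ubiquitin, RPL40A, RPL40B and RPS31, differed by 0.08 ± 0.07, 0.02 ± 0.08 and 0.05 ± 0.06 (log2, SE), with adjusted p of 0.351, 0.859 and 0.547.

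Across the 127 genes, those with a lower control value tended to have the larger rises, though RPL15B, also low in control, fell. The change at 300 mg/L and the control log2 value had Pearson's r of -0.45 and Spearman's rho of -0.43 (n = 127 genes on the same 6 arrays), or -0.28 and -0.42 without RPL41A. Control arrays enter both measures, and levels on different probe sets also depend on the probes. In genes with a control value of 12.5 or more the median change was -0.02, with 1 of 36 higher and 3 lower, and in those from 11 to 12 it was 0.08, with 10 of 40 higher and 1 lower. Other genes at those levels had medians of -0.15 and -0.05, with 53.3% of 30 and 45.8% of 177 called, so their medians too were lower at the higher level.

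At 50 mg/L against control no ribosomal protein gene passed the test, as was the case for all genes (0.0% called by limma). At an unadjusted p under 0.05, 4 of 127 genes were found, where 7.14% of all genes were. The values nevertheless leaned one way: 114 of 127 genes had a lower mean at 50 mg/L than in control, as did 2782 of all 5449 genes. The median log2 change was -0.06, against -0.00 over all genes, and 27 had all 3 arrays below all control arrays, where 6.48% of all genes did. Of the 69 other genes between the quartiles of the ribosomal protein levels, 25 were lower, with a median of 0.02. The ribosomal protein genes also shifted together between control arrays: 108 of 127 lay below the control mean on control replicate 1 and 11 on control replicate 3. Without replicate 2 of that group the median was -0.03. RPL13A, for a 60S protein, had the smallest p, with log2 values of 11.57, 11.25 and 11.53 at 50 mg/L, against 11.62, 11.71 and 11.70 in control, a change of -0.23 ± 0.09 (unadjusted p = 0.0258, adjusted p = 0.581). RPL21B, of the 60S subunit, and RPS1A, of the 40S subunit, followed with -0.19 ± 0.08 and -0.22 ± 0.10, each with an adjusted p of 0.581. In these 3 genes replicate 2 was the lowest of the 50 mg/L arrays. No A minus B difference changed at this dose by limma (0.0% of pairs), and 2 of 50 had an unadjusted p under 0.05.

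Set against 50 mg/L, 300 mg/L gave more calls in the set and nearly all of them upward. Of 127 genes, 39 were higher and 3 lower (52.8% of all genes were called, 27.5% higher and 25.3% lower), with a median log2 change of 0.12, against 0.00 over all genes. The split was 31 and 7 with quantile normalization, 3 and 1 with arrays centred on the spike-ins, and 28 and 9 without replicate 2 at 50 mg/L. Over all genes 26.0% were called with the spike-ins and 55.0% without that replicate. This comparison shares its 300 mg/L arrays with the one against control. RPS14B rose by 0.81 ± 0.10 against 50 mg/L (0.61 against control), RPL41A by 0.78 ± 0.16 (0.82), RPL22B by 0.65 ± 0.08 (0.57) and RPS25B by 0.39 ± 0.07 (0.36). RPS22B, RPL34A and RPS27A, with 0.36 ± 0.11, 0.32 ± 0.07 and 0.32 ± 0.06 (log2, SE), entered the 10 largest rises here, and RPS22B had not passed against control (0.15 ± 0.11, adjusted p = 0.258). The 3 genes that fell were RPL15B by 0.48 ± 0.09, RPL25 by 0.47 ± 0.07 and RPS0B by 0.27 ± 0.06. The A minus B difference changed in 17 of 50 pairs (34.0%), 7 with A higher relative to B and 10 with A lower. The 5 largest were RPS14 at -0.75 ± 0.09, RPL15 at 0.72 ± 0.12, RPL22 at -0.56 ± 0.08, RPS21 at 0.44 ± 0.06 and RPS28 at 0.30 ± 0.07.

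By means over the 3 groups, 74 of 127 genes (58.3%) were lower at 50 mg/L and higher at 300 mg/L than in control, a pattern held by 23.8% of all genes. The medians behind these signs were small and moved with the setting: the set's median at 300 mg/L was 0.06, or -0.03 with the spike-ins, and at 50 mg/L it was -0.06, or -0.03 without replicate 2. A moderated F test for any difference among the groups called 34 of 127 genes, where 52.9% of all genes were called.

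Among genes that act on ribosomal proteins, most of the chaperones rose. Of 13 measured chaperones and importers of ribosomal proteins, 11 rose and 1 fell at 300 mg/L against control, with a median log2 change of 0.48, against 0.01 over all genes, of which 52.7% were called and 27.5% were higher. With the spike-ins 5 were higher and 0 lower, where 28.1% of all genes were called. YAR1, the chaperone of Rps3, had log2 values of 10.51, 10.31 and 10.37 at 300 mg/L, against 9.26, 9.39 and 9.42 in control, and rose by 1.04 ± 0.09 (adjusted p = 1.07e-05). SYO1, which carries Rpl5 and Rpl11 into the nucleus, rose by 0.88 ± 0.17 (adjusted p = 0.0016), and the histone and ribosomal protein chaperone NAP1 fell by 0.27 ± 0.06 (adjusted p = 0.00514). Of 9 enzymes that methylate or hydroxylate ribosomal proteins, 5 rose and 1 fell (1 and 1 with the spike-ins), beside the same 52.7% of all genes called, with a median of 0.32. Among them the arginine methyltransferase RMT2 rose by 0.56 ± 0.12 and the lysine methyltransferase RKM4 by 0.54 ± 0.10, while RKM1 fell by 0.37 ± 0.10.

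Of 21 measured regulators of ribosomal protein gene transcription, 8 rose and 1 fell, with a median log2 change of 0.19. That share is below the 52.7% called over all genes. With the spike-ins, which left 28.1% of all genes called, 2 were higher and 1 lower. CRF1, a corepressor that competes with the activator Ifh1, had log2 values of 5.34, 5.05 and 5.44 at 300 mg/L, against 3.95, 3.95 and 3.43 in control, and rose by 1.50 ± 0.14 (adjusted p = 2.83e-05). The growth kinase SCH9 rose by 0.54 ± 0.10 (adjusted p = 0.00134), and ESA1, the histone acetyltransferase recruited to these genes, fell by 0.48 ± 0.07 (adjusted p = 0.000242). IFH1 itself differed by 0.26 ± 0.11 (adjusted p = 0.0772), FHL1, which recruits it, by -0.17 ± 0.11 (adjusted p = 0.217), and the DNA-binding factor RAP1 by 0.01 ± 0.08 (adjusted p = 0.932). These 3 were picked for their role after the values were seen. Of 13 proteins that bind the finished ribosome, 1 rose and 4 fell, again a smaller share than over all genes, with a median of -0.12. The split was 1 higher and 6 lower with quantile normalization or the gene median, and 0 and 1 with the spike-ins. STM1, which preserves idle ribosomes, fell by 0.37 ± 0.06 (adjusted p = 0.000765), ASC1, the yeast RACK1 on the 40S head, by 0.33 ± 0.07 (adjusted p = 0.00233), and LSO2, a ribosome recovery factor, rose by 0.24 ± 0.07 (adjusted p = 0.0202), a call lost under 5 of 20 alternatives. The signs of these 4 medians were the same under the 4 other scalings.

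**Figure D5:**
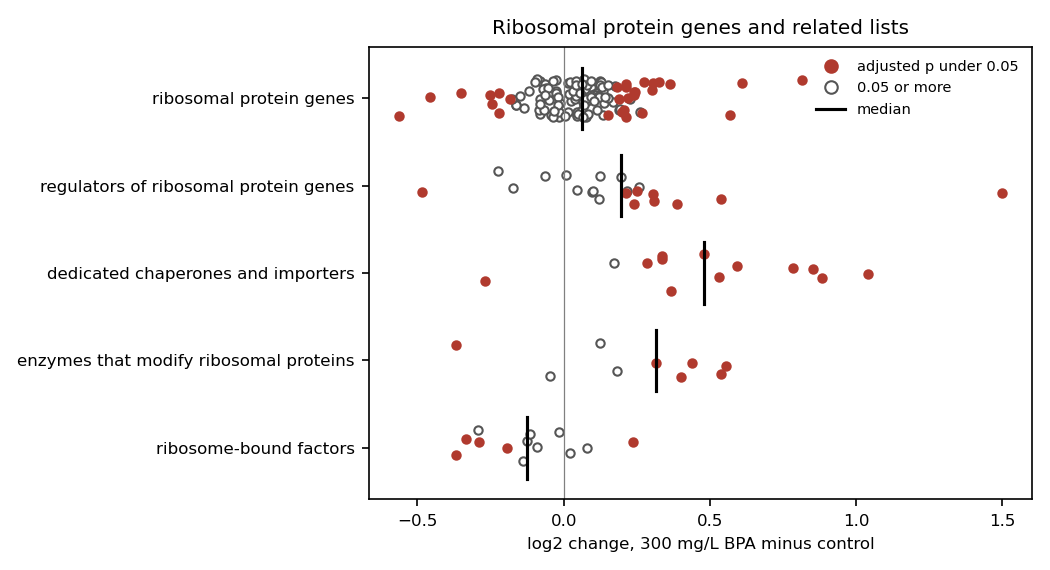
Log2 change at 300 mg/L BPA minus control (horizontal axis) of the ribosomal protein genes and of 4 related lists (1 point per gene, filled where the adjusted p was under 0.05, black bars for medians). The chaperones and importers lie furthest to the right, with a median of 0.48, and the ribosome-bound factors lie to the left, at -0.12.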

How the data were processed

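Expression was measured on 9 arrays, and the deposited log2 values come, per the submitters' processing notes, from a workflow that names RMA, affy and limma without versions or roles. RMA corrects the background, makes probe intensities equally distributed on all arrays and summarises each probe set, so total mRNA per cell is not measured. Hybridisation dates and the annotation release are not stated, so no batch could be tested, and precision is limited by the number of arrays. Of 10928 probe sets, 5498 were matched to S. cerevisiae genes of the R64 gene table and 1746 were named for S. pombe. Where a gene had more than 1, the brightest on average over 9 arrays was kept, which left 5449 genes. The chosen genes have 147 probe sets, and 20 of the 127 genes have more than 1.

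Changes were tested with limma 3.58.1 in R 4.3.3 (lmFit, contrasts, eBayes) over all 9 arrays, as two-sided tests. P-values were adjusted by Benjamini-Hochberg across the 5449 genes and called under 0.05. For paralogues, the A minus B differences of 50 pairs were added to the gene table and adjusted with it. Ribosomal RNA control probe sets were adjusted in a table of all named S. cerevisiae probe sets and these controls. Errors are standard errors of the fit unless marked SD. The pipeline was tested on simulated data.

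Named genes are the 10 largest rises and 10 largest falls among called genes of each comparison (or the 3 of smallest p), the 10 pairs with the largest changes against control and 5 against 50 mg/L, the stalk and ubiquitin fusion genes, and the 2 largest called rises and falls of each related list. The genes, lists and tests were chosen with earlier results of these data known. Same-numbered control and 50 mg/L arrays deviated together from their group means (r of 0.19 to 0.42), so the numbers may pair these 2 groups. Arrays of unlike number reached 0.18 there, but 0.33 for 300 mg/L and control and 0.40 for 300 and 50 mg/L. Such values therefore do not settle whether the groups were paired. Same-numbered arrays at 300 mg/L did not deviate together, with r from -0.34 to 0.09 against control and from -0.26 to 0.16 against 50 mg/L. The main fit paired no groups, and the replicate block entered only as an alternative. Alternatives were quantile normalization, 3 centrings of the arrays, a filter on low values, other probe sets, array weights, an intensity trend with robust estimation, the replicate block, fits of only the 2 groups compared, and each array left out in turn. Figures were drawn with matplotlib 3.10.9.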

Additional observations from a re-analysis of the deposited data

Results flagged for a closer look

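In 3 of the 20 ribosomal protein genes with more than 1 probe set, the probe set that was not used gave a call at 300 mg/L against control where the one used did not. The unused probe sets, all of the kind without a suffix for related sequences, were higher by 0.26 on the log2 scale for RPL11B (adjusted p = 0.00568), against 0.03 on the one used, by 0.28 for RPL14B (adjusted p = 0.0322), against 0.05, and by 0.21 for RPS19B (adjusted p = 0.0479), against 0.12. The 3 probe sets used can match related sequences. None of the 20 genes had calls in opposite directions, and the median gap between the changes of 2 probe sets of a gene was 0.06.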

How the results depend on the processing

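All 20 alternatives left 0 ribosomal protein genes and 0 pairs called at 50 mg/L, and no named gene or pair that passed the test turned its direction under any of them. Centring on the spike-ins lowered the calls to 5 genes and 4 pairs at 300 mg/L against control, 4 genes and 3 pairs against 50 mg/L and 5 by the F test. Over all genes, this centring lowered the share called from 52.7% to 28.1% against control and from 52.8% to 26.0% against 50 mg/L. It put the median of all genes at -0.07 at 300 mg/L (0.01 as deposited) and -0.11 at 50 mg/L (-0.00), and the set's medians at -0.0255 and -0.172. The median at 300 mg/L was 0.107 centred on the S. pombe probe sets and 0.0251 after quantile normalization. Array weights gave 49 genes and 24 pairs against control and 59 by the F test, and an intensity trend with robust estimation 56 by the F test, with 10 pairs against 50 mg/L, where a fit of only the 2 groups gave 11. Over all genes, array weights called 66.1% against control. Against 50 mg/L the intensity trend called 54.1% and the fit of only the 2 groups 47.1%. The cause was not tested.

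Leaving out 1 array gave 15 to 43 genes and 11 to 20 pairs against control, 29 to 44 genes and 10 to 19 pairs against 50 mg/L, and 18 to 40 genes by the F test. Over all genes, these fits called 42.9% to 60.8% against control and 44.2% to 55.0% against 50 mg/L. The lowest F test counts, 18, 19 and 20, were without a 300 mg/L array, and the lowest pair counts against 50 mg/L, 10 and 11, were without replicate 1 at 300 mg/L and replicate 1 at 50 mg/L. With the replicate block the counts against control were 24 genes (17 higher and 7 lower) and 12 pairs, against 50 mg/L 42 genes and 13 pairs, and 29 by the F test, while at 50 mg/L against control it changed no call, also in a fit of only those 2 groups that was chosen after seeing the data.

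RPL25, RPL15B, RPL22B and RPS14B kept their calls against control under all 20 alternatives, as did the pairs RPL15, RPL22, RPS14 and RPS28. The other 6 pairs of the 10 largest lost theirs only with the spike-ins. Of the 20 named ribosomal protein genes called against control, 7 lost the call under 1 alternative and 9 under several.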

Other observations

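The array also carries control probe sets for the ribosomal RNA that these proteins bind. The one at the 3' end of 25S ribosomal RNA had log2 values of 13.47, 13.51 and 13.51 at 300 mg/L, against 12.56, 12.31 and 12.51 in control, a change of 1.03 ± 0.19 (SE, adjusted p = 0.00124). The one in the middle of 25S changed by 0.93 ± 0.12 (adjusted p = 0.000172), and the one at the 5' end differed by 0.21 ± 0.15 (adjusted p = 0.264). At 50 mg/L none of the 21 ribosomal RNA probe sets, some of them named for S. pombe, passed the test. All 3 arrays at 300 mg/L lay above all 3 control arrays for the 3' and middle probe sets of 25S. Not all probe sets rose at 300 mg/L: the 18S probe set labelled b changed by -0.26 ± 0.09 (adjusted p = 0.0392). The S. pombe one at the 5' end of 18S also changed by -0.26 ± 0.09 (adjusted p = 0.037).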
